A study of Homo sapiens with 4 samples.

Results

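The miRNAs described here are the non-Let-7 products of the 3 genomic clusters that pair a Let-7 hairpin with hairpins of the miR-99 and miR-125 families. They were chosen by name as hsa-miR-99a-5p, hsa-miR-99b-5p, hsa-miR-100-5p, hsa-miR-125a-5p and hsa-miR-125b-5p, together with any other arm or numbered form of these names. Of the 5 named members, 4 had a row among the 746 miRNA names of the table. hsa-miR-99b-5p was not analysed here, nor were the 3p arms of these hairpins. The comparators were Let-7c-5p, Let-7a-5p and Let-7e-5p, the Let-7 products of the same clusters.

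The libraries came from U-251, an established human glioma cell line, which the labels give as wild type. miRNA sequencing (miR-seq) of total RNA was performed on 4 biological replicates that formed 1 group, so there was no comparison between conditions. The labels state that all 4 cultures received DMSO as vehicle, whereas the paper speaks of basal conditions. The extraction text of the labels describes oligo-dT capture of mRNA, whereas a kit for miRNA libraries is given in the methods of the paper. The labels do not say how the cultures were separated, so the errors given below measure the spread between these 4 libraries, which may be technical.

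Animal genomes keep miR-100, Let-7 and miR-125 side by side, and in vertebrates the arrangement was copied, so that each Let-7 of a cluster is transcribed within the same host gene as a member of the miR-99 family, to which miR-100 belongs, and a member of the miR-125 family. A miRNA recognises target mRNAs mainly through its seed, bases 2 to 8 counted from 1 at its 5′ end. The miR-99 family is known for repressing MTOR, and miR-125, the relative of nematode lin-4, for repressing LIN28 mRNAs. LIN28 proteins in turn bind Let-7 precursors and block their maturation, a step that acts on the Let-7 hairpin and not on its partners, so miRNAs of 1 host transcript need not accumulate to the same level.

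The mature sequences are shown because the families differ in their seeds and because names within a family differ by few bases. All 8 names matched the RefSeq miRNA annotation of GRCh38.p14. Sequences run 5′ to 3′ and capitals mark the seed.
hsa-miR-99a-5p: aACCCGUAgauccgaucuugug
hsa-miR-100-5p: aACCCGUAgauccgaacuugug
hsa-miR-99b-5p: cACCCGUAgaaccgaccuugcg
hsa-miR-125a-5p: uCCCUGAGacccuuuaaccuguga
hsa-miR-125b-5p: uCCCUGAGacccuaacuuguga
hsa-let-7a-5p: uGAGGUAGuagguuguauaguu
hsa-let-7c-5p: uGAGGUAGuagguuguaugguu
hsa-let-7e-5p: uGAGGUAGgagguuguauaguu

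The 3 seeds of the clusters are thus distinct, and within a family every name carries the same one. miR-99a-5p and miR-100-5p differ by the single substitution U16A, with miR-99a-5p as the reference and positions counted from the 5′ end. miR-125a-5p has 24 bases and miR-125b-5p has 22, and they share their first 13 and last 5 bases. Let-7c-5p differs from Let-7a-5p by A19G and Let-7e-5p differs from it by U9G. miR-99a-5p, miR-100-5p, miR-125a-5p and miR-125b-5p each have a GC content of 50.0%, compared with 36.4% for Let-7a-5p and 40.9% for Let-7c-5p and Let-7e-5p.

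The hairpins that give the members differ more than their mature products. The RefSeq hairpins of the measured members, except MIR125B2 of miR-125b-5p, are printed below in the same direction, with the mature 5p sequence in capitals.
MIR99A: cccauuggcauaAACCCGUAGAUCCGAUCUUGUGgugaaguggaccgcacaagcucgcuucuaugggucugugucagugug
MIR100: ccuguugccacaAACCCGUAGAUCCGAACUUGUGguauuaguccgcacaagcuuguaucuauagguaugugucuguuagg
MIR125A: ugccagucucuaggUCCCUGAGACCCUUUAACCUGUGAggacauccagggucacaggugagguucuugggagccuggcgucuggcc
MIR125B1: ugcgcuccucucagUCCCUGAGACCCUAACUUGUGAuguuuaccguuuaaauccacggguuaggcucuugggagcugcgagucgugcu

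miR-125b-5p is made from 2 hairpin genes in different clusters and Let-7a-5p from 3 hairpin genes, of which 1 lies in a cluster described here. Each of the other names printed above has 1 hairpin gene. The measured Let-7 names 1 base away are Let-7f-5p, Let-7e-5p and Let-7c-5p in the case of Let-7a-5p. They are Let-7a-5p and Let-7b-5p in the case of Let-7c-5p, and Let-7a-5p in that of Let-7e-5p. The ratios below were therefore also computed with names 1 base apart summed, and with each count divided by how many hairpin genes its name has (per hairpin gene). A count of miR-125b-5p or Let-7a-5p cannot be assigned to a single cluster. The counts of these names became whole when multiplied by their 2 and 3 hairpin genes. Of the 40 names with non-whole counts, 37 have a known number of hairpin genes, and 19 of these became whole in this way. Only 22 of the 37 have more than 1 hairpin gene. Whether the counts of miR-125b-5p and Let-7a-5p were already averaged over hairpin genes was not tested. If so, the division would be applied again, and the levels, ranks, shares and ratios given below for these names would rest on averaged counts.

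In the GENCODE annotation of GRCh38, the MIR99A cluster lies on the plus strand of chromosome 21 within the long non-coding gene MIR99AHG. MIR99A is at chr21:16539089-16539169, MIRLET7C at chr21:16539828-16539911 and MIR125B2 at chr21:16590237-16590325. MIR99A is intronic in all 128 transcripts of the host that span it, whereas MIRLET7C falls within an exon of 3 of 128 and MIR125B2 within an exon of 1 of 126. MIR99A and MIRLET7C are separated by 658 bases, while MIR125B2 starts 50325 bases further on.

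The MIR100 cluster lies on the minus strand of chromosome 11 within the long non-coding gene MIR100HG. MIR100 is at chr11:122152229-122152308, MIRLET7A2 at chr11:122146522-122146593 and MIR125B1 at chr11:122099757-122099844. All 3 hairpins are intronic in every host transcript that spans them. The gaps are 5635 bases between MIR100 and MIRLET7A2 and 46677 bases between MIRLET7A2 and MIR125B1.

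The MIR99B cluster is by far the most compact, with MIR99B at chr19:51692612-51692681, MIRLET7E at chr19:51692786-51692864 and MIR125A at chr19:51693254-51693339. Its hairpins lie on the plus strand in an intron of both transcripts of SPACA6 that span them. They also lie inside an exon of an antisense long non-coding transcript, SPACA6-AS1. Together they span 728 bases, compared with 51237 for the MIR99A cluster and 52552 for the MIR100 cluster. The map of the 3 clusters shows this layout.

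**Figure D1:**
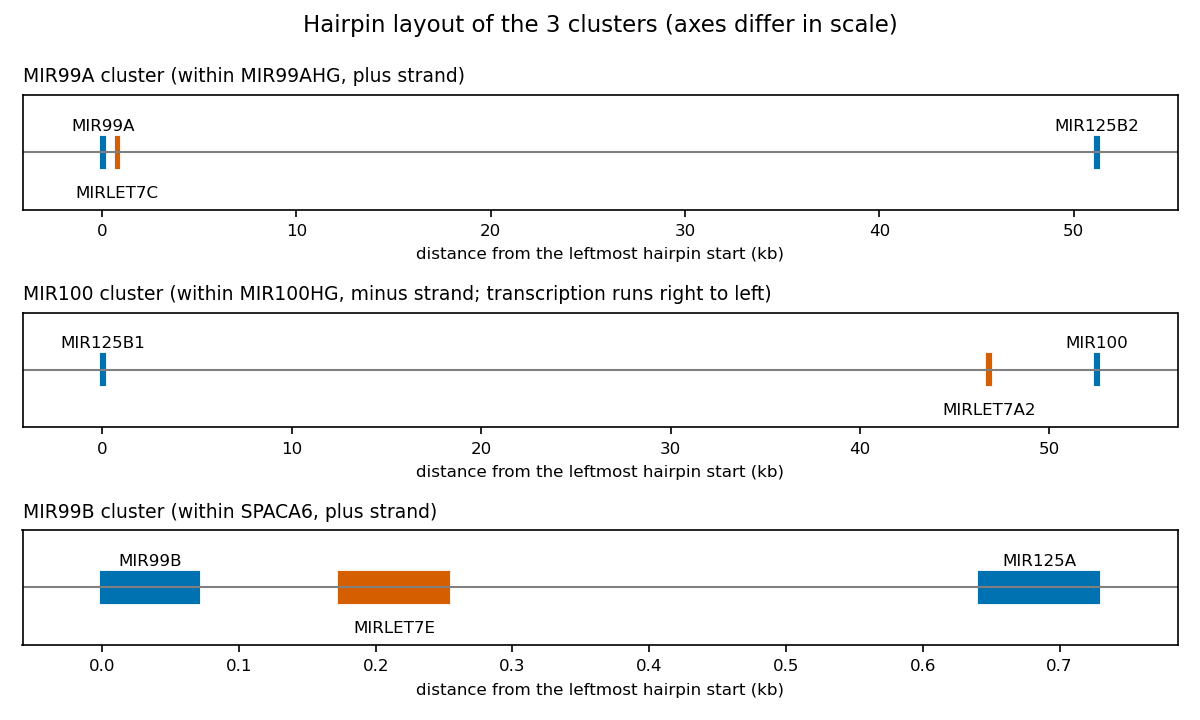
Positions of the hairpin genes in the MIR99A, MIR100 and MIR99B clusters, as distance in kb from the leftmost hairpin start, with Let-7 hairpins in orange and partner hairpins in blue. The horizontal scale differs between panels: the MIR125B hairpins lie about 50 kb from their partners in the upper panels, whereas the MIR99B cluster spans 728 bases.

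Levels are given as CPM, the deposited count divided by the total count of its library and scaled to 1000000. The library totals ranged from 12363104 to 13214969 counts. Blanks were kept apart from counts and were not read as 0, although in a sum of names a blank added nothing. Of the 746 names, 309 had a value in every library and 280 had at least 10 counts in every library. Markers fixed for glioma cells, namely miR-21-5p, miR-9-5p and miR-10b-5p, were listed in every library and summed to between 32724 and 76416 CPM, with replicate 1 the highest. The lists for blood, neurons, epithelium and liver summed to at most 218, 18.1, 20.5 and 35.8 CPM. These sums cover only part of the lists, with values for 4 of 6 blood names, 1 of 4 neuron names, 2 of 4 epithelial names and the 1 liver name. miR-124-3p and miR-128-3p of the neuron list, miR-200c-3p and miR-141-3p of the epithelial list and miR-223-3p of the blood list were not analysed here. miR-451a, which defines red blood cells, was blank in every library.

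miR-125b-5p was the most abundant of the members, with 37741, 43357, 36740 and 35783 CPM in replicates 1 to 4, or 38405 ± 3397 CPM (SD, n = 4). It ranked 7th among all names in replicate 1 and 4th in each of the other libraries. miR-125a-5p followed with 18788, 22881, 21196 and 23862 CPM in replicates 1 to 4, or 21682 ± 2221 CPM (SD, n = 4), and ranked between 7th and 12th. Both members of the miR-125 seed family thus lay among the most abundant names of the table in every library.

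The miR-99 family was far less abundant. miR-100-5p was blank in replicate 1 and measured 1429, 1301 and 935 CPM in replicates 2 to 4, or 1222 ± 256 CPM (SD, n = 3), at ranks 48, 53 and 55. miR-99a-5p measured 559, 466, 333 and 386 CPM in replicates 1 to 4, or 436 ± 98.7 CPM (SD, n = 4), at ranks between 77 and 96. The lowest value of miR-100-5p was above the highest of miR-99a-5p.

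The order of the members was miR-125b-5p, miR-125a-5p, miR-100-5p and miR-99a-5p, and no neighbours in this order overlapped between libraries. Counting error was small beside the spread between libraries. For miR-99a-5p, the least abundant, the 95% Wilson interval was 546 to 572 CPM in replicate 1 and 323 to 343 CPM in replicate 3.

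Among their cluster partners, Let-7a-5p had 229410 ± 19583 CPM, Let-7c-5p had 28055 ± 2775 CPM and Let-7e-5p had 27639 ± 3215 CPM (SD, n = 4). Let-7c-5p and Let-7e-5p overlapped, and the lowest value of miR-125b-5p was above the highest of Let-7c-5p, 32187 CPM in replicate 4. The highest value of miR-125a-5p was below the lowest of Let-7e-5p, 24476 CPM in replicate 1. The plot of levels by library shows the miR-99 family apart from the other 5 names.

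**Figure D2:**
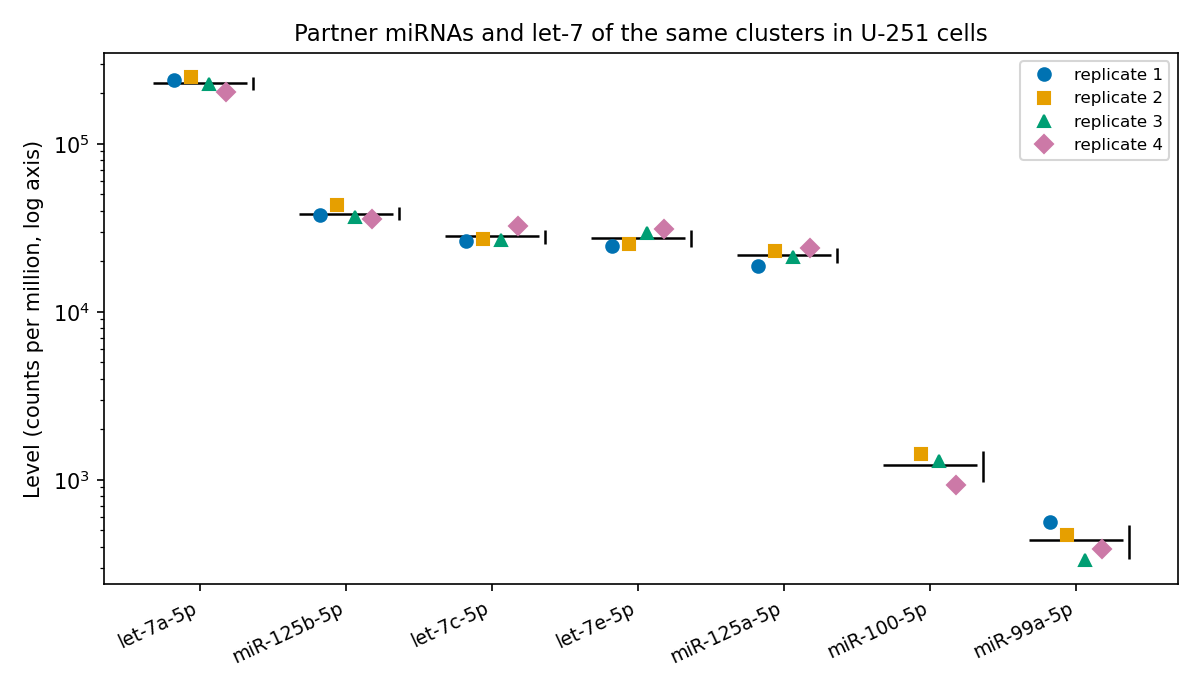
Level in CPM (log axis) of the 4 measured members and of Let-7a-5p, Let-7c-5p and Let-7e-5p, 1 point per library, with the mean as a horizontal line and the SD as a vertical bar beside the points. miR-100-5p has no point for replicate 1, where it is blank, and miR-99a-5p is the lowest of the 7 names.

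In the wider Let-7 family, which shares 1 seed, miR-125b-5p fell between Let-7i-5p (85188 ± 22734 CPM) and Let-7f-5p (30293 ± 14520 CPM) by mean level (SD, n = 4). The values of Let-7f-5p ran from 20210 to 51833 CPM and overlapped those of miR-125b-5p and miR-125a-5p. miR-125a-5p was above Let-7g-5p (8834 ± 1226 CPM) in every library. miR-100-5p lay beside miR-98-5p (1206 ± 569 CPM, SD, n = 4), with which it overlapped, and miR-99a-5p lay below every Let-7 name in every library.

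The 4 measured members together held 5.71%, 6.81%, 5.96% and 6.10% of the counts in replicates 1 to 4, or 6.14% ± 0.474 (SD, n = 4), with miR-100-5p contributing nothing in replicate 1. Let-7a-5p, Let-7c-5p and Let-7e-5p held 28.5% ± 1.44 (SD, n = 4). The miR-125 family alone held 6.01% ± 0.429 (SD, n = 4). Over the replicates in which both miR-99 family names were listed, the miR-125 family had 34.9, 35.5 and 45.2 times their summed counts.

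The members were next compared with the Let-7 of their own clusters by the log2 ratio of counts within a library, which does not depend on the library total. Of the 19 comparisons planned, 13 gave a value and the other 6 need miR-99b-5p. Each was tested with a two-sided exact sign-flip permutation test. With 4 libraries its p cannot go below 0.125 and with 3 libraries it cannot go below 0.25, so no comparison could pass 0.05. Of the 13, 12 had the same sign in every library. Those with 4 libraries had an exact permutation p of 0.125, which the Benjamini-Hochberg adjustment over the 13 raised to 0.203, and those with 3 libraries had 0.25, adjusted to 0.271. The 13 tests reuse the same counts and are not independent.

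In the MIR99A cluster, miR-99a-5p was far below Let-7c-5p, although their hairpins lie 658 bases apart in 1 host gene. The log2 ratio was −5.55, −5.86, −6.33 and −6.38 in replicates 1 to 4, with a mean of −6.03 ± 0.40 (SD, n = 4). Let-7c-5p therefore had 46.9 times the counts of miR-99a-5p in replicate 1 and 83.4 times in replicate 4. The counting interval in replicate 1, −5.59 to −5.52, did not reach that of replicate 4, −6.42 to −6.34. With names 1 base apart summed, the mean was −8.58, where replicate 1 held miR-99a-5p alone.

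In the MIR100 cluster, miR-100-5p was lower than Let-7a-5p by log2 ratios of −7.44, −7.45 and −7.76 in replicates 2 to 4, with a mean of −7.55 ± 0.18 (SD, n = 3). The mean corresponds to 188 times more Let-7a-5p, whose counts can also come from hairpins outside the cluster. The mean was −5.97 per hairpin gene and −10.6 with the blank of replicate 1 taken as 3 counts, the limit that a count of 0 allows. This ratio was lower than that of miR-99a-5p to Let-7c-5p in each of replicates 2 to 4, with a mean difference of −1.36 ± 0.23 on the log2 scale (SD, n = 3). The difference had the opposite sign per hairpin gene (0.22). With names 1 base apart summed, miR-99a-5p and miR-100-5p became the same sum and cancelled. The value, 0.58 with replicate 1 included, thus compared Let-7 sums alone and cannot show whether this difference changes sign.

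The log2 ratios of the miR-125 members to their Let-7 partners were nearer to 0. In the MIR99B cluster, miR-125a-5p was below Let-7e-5p by log2 ratios of −0.38, −0.15, −0.48 and −0.38 in replicates 1 to 4, with a mean of −0.35 ± 0.14 (SD, n = 4), or 1.27 times more Let-7e-5p. The pair has 1 hairpin gene each, but with Let-7a-5p, which is 1 base away, summed with Let-7e-5p the mean was −3.57. miR-125b-5p was below Let-7a-5p by −2.66, −2.52, −2.63 and −2.50, with a mean of −2.58 ± 0.08 (SD, n = 4), which became −3.04 with names 1 base apart summed and −1.99 per hairpin gene. The ratio of miR-125b-5p to Let-7a-5p was lower than that of miR-125a-5p to Let-7e-5p in every library, by −2.23 ± 0.12 on the log2 scale (SD, n = 4). With names 1 base apart summed this difference was 0.53 and had the opposite sign. Let-7a-5p then entered the denominator of both ratios, so that value cannot show how the clusters compare.

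Against Let-7c-5p, miR-125b-5p was higher, by log2 ratios of 0.52, 0.68, 0.46 and 0.15 in replicates 1 to 4 and a mean of 0.45 ± 0.22 (SD, n = 4). This was the only member above a Let-7 partner, and the direction depended on how the counts were assigned. With counts divided by the number of hairpin genes, the mean was −0.55, and with Let-7a-5p and Let-7b-5p summed with Let-7c-5p it was −3.61.

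**Figure D3:**
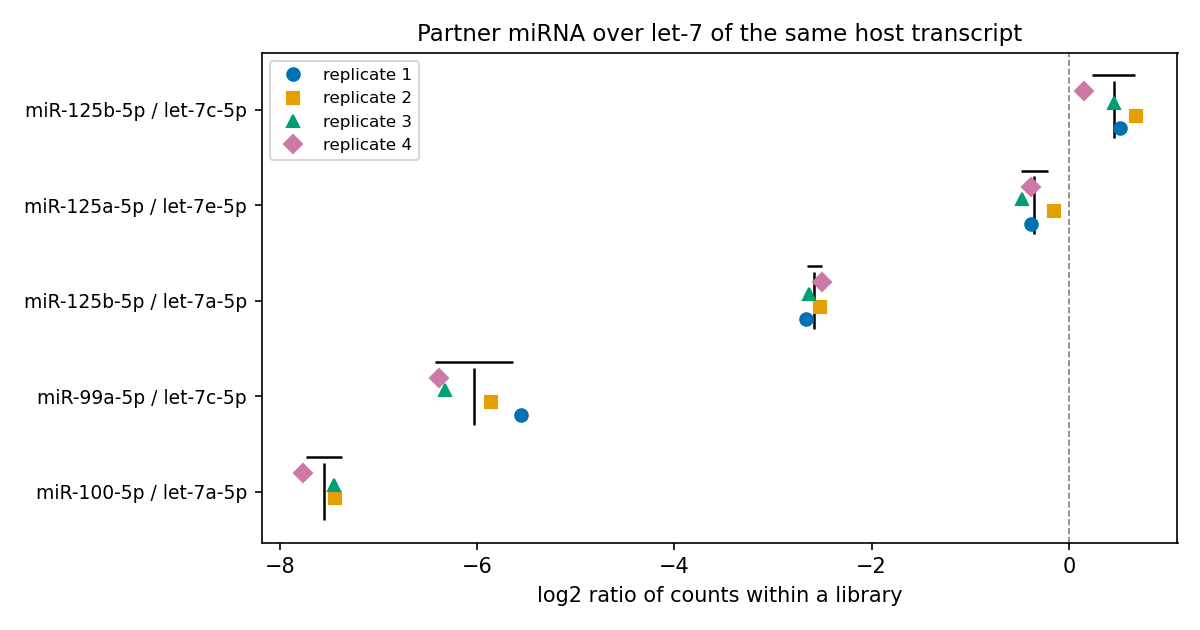
Log2 ratio of a partner miRNA to a Let-7 miRNA with a hairpin in the same host gene, within each library, 1 point per library. The mean is a vertical line and the SD a horizontal bar above the points. Counts of miR-125b-5p and Let-7a-5p cannot be assigned to a single cluster. The miR-125 ratios lie between −2.66 and 0.68, whereas those of miR-99a-5p and miR-100-5p lie between −7.76 and −5.55.

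Between the families of 1 cluster, miR-125b-5p exceeded miR-99a-5p by log2 ratios of 6.08 to 6.79, with a mean of 6.48 ± 0.30 (SD, n = 4). It exceeded miR-100-5p by 4.92, 4.82 and 5.26 in replicates 2 to 4 (SD 0.23, n = 3). miR-125b-5p thus had on average 89.5 times the counts of miR-99a-5p, and between 28.2 and 38.3 times those of miR-100-5p. With counts divided by the number of hairpin genes the mean log2 ratios were 5.48 and 4.00. With miR-99a-5p and miR-100-5p summed the ratio to both was 4.96 ± 0.75 (SD, n = 4), where replicate 1 held miR-99a-5p alone. With the blank taken as 3 counts the ratio to miR-100-5p was 8.07.

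Within a seed family, miR-125b-5p held 66.8%, 65.5%, 63.4% and 60.0% of the summed miR-125a-5p and miR-125b-5p counts in replicates 1 to 4, or 63.9% ± 2.95 (SD, n = 4). The log2 ratio of miR-125b-5p to miR-125a-5p was 1.01, 0.92, 0.79 and 0.58, with a mean of 0.83 ± 0.18 (SD, n = 4). With miR-125b-5p divided by its 2 hairpin genes, the mean log2 ratio was −0.17. miR-100-5p held 75.4% of the summed miR-99a-5p and miR-100-5p counts in replicate 2 (95% Wilson interval 74.9 to 75.9%), 79.6% in replicate 3 (79.1 to 80.2%) and 70.8% in replicate 4 (70.1 to 71.5%). The log2 ratio of miR-100-5p to miR-99a-5p was 1.62, 1.97 and 1.28, with a mean of 1.62 ± 0.34 (SD, n = 3).

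miR-100-5p was blank in replicate 1 and had 18887, 16080 and 11922 counts in replicates 2 to 4. Of the 330 names listed in replicates 2 to 4, 21 (6.36%) were blank in replicate 1, and miR-100-5p was the second most abundant of these after miR-24-1-5p. Among the 57 names with at least 10000 counts in each of replicates 2 to 4, only those 2 were blank in replicate 1. miR-99a-5p, which differs from miR-100-5p by 1 base, had its highest count in that library, 7013 compared with 4114 to 6164 in the others. Its level there, 559 CPM, was below the summed level of miR-99a-5p and miR-100-5p in each of the other libraries, which was 1896, 1633 and 1321 CPM in replicates 2 to 4. Whether a blank stands for no reads or for a value that was dropped was not tested. If it were taken as 3 counts, the mean log2 ratio of miR-100-5p to miR-99a-5p would be −1.58, a direction set by replicate 1 alone.

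Spread between libraries was described by the coefficient of variation (CV) of the CPM values. miR-125b-5p had a CV of 8.84%, rank 25 from the lowest among the 280 names with at least 10 counts in every library, and miR-125a-5p had 10.2%, rank 39. miR-99a-5p had a CV of 22.6%, rank 163, next to a median of 20.1% over the 280 names. The values of miR-99a-5p differed 1.68-fold between its highest and lowest library, those of miR-125a-5p 1.27-fold and those of miR-125b-5p 1.21-fold.

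The members were also set beside names within 3-fold of their own mean level. None of the 10 such names had a lower CV than miR-125b-5p, compared with 8 of 19 for miR-125a-5p and 52 of 75 for miR-99a-5p. miR-100-5p was left out of these ranks for its blank and had a CV of 21.0% over 3 libraries. No library of miR-125b-5p, miR-125a-5p or miR-99a-5p stood apart by Dixon's gap ratio (0 of 3), which called a library for 31 of the 280 names (11.1%).

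**Figure D4:**
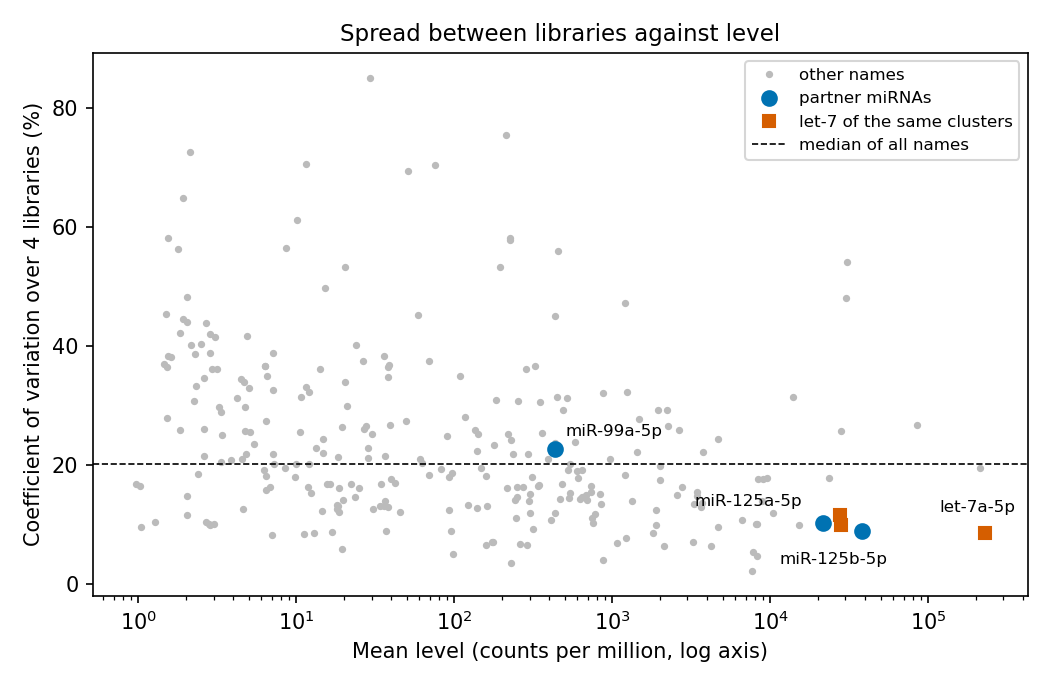
CV in percent over the 4 libraries against mean level in CPM (log axis) for the 280 names with at least 10 counts in every library, with the members in blue, their Let-7 partners in orange and the median of all names as a dashed line. miR-125b-5p and miR-125a-5p lie at CVs of 8.84% and 10.2%, below the median of 20.1%, and miR-99a-5p lies above it.

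The spread of the ratios was also unequal among the partners. The log2 ratio to Let-7a-5p had an SD of 0.08 for miR-125b-5p, rank 14 from the lowest of 279 names set against Let-7a-5p, for which the median SD was 0.31. The ratio of miR-125a-5p to Let-7e-5p had an SD of 0.14, rank 15 of 279, next to a median of 0.34. By contrast, the ratio of miR-99a-5p to Let-7c-5p had an SD of 0.40, rank 173 of 279, next to a median of 0.33. The ratio of miR-125b-5p to Let-7c-5p had an SD of 0.22, rank 46 of 279, with the same median. Over 3 libraries, the ratio of miR-100-5p to Let-7a-5p had an SD of 0.18, rank 131 of 296, next to a median of 0.21. Unlike the CV comparison within 3-fold of a level, these ranks were taken over names of every level. Low-count names carry more counting error, so a low rank need not be particular to a partner pair.

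The libraries in which a member was high also differed. miR-99a-5p was highest in replicate 1, with a log2 deviation from its own mean of 0.39, and lowest in replicate 3, with −0.36, whereas miR-125a-5p was lowest in replicate 1 with −0.20 and highest in replicate 4 with 0.14. miR-125b-5p deviated by −0.02, 0.18, −0.06 and −0.10 in replicates 1 to 4, next to 0.06, 0.12, −0.01 and −0.17 for Let-7a-5p. Let-7c-5p was highest in replicate 4, with 0.20, where miR-99a-5p was below its mean, with −0.15. The 3 glioma markers were, like miR-99a-5p, highest in replicate 1, and their part in this pattern was not tested.

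The names whose profile over the 4 libraries was most like that of a member were found by the root mean square difference of centred log2 CPM. For miR-99a-5p they were miR-26b-5p (0.08), miR-450a-5p (0.11) and miR-130a-5p (0.11). For miR-125a-5p they were miR-1343-5p (0.04), miR-597-5p (0.05) and miR-320a-5p (0.08), the first of which had 145 counts over the 4 libraries. For miR-125b-5p they were miR-103a-1-5p (0.04), miR-103a-2-5p (0.04) and miR-105-5p (0.05). The levels of miR-103a-1-5p and miR-103a-2-5p were nearly equal in every library, with 7889 and 7928 CPM in replicate 1. Whether these names hold the same reads was not tested. Ranked in the same way among 279 names, Let-7a-5p was 11th for miR-125b-5p, Let-7e-5p was 20th for miR-125a-5p and Let-7c-5p was 118th for miR-99a-5p. Let-7 names of another cluster were nearer for miR-125a-5p, for which Let-7c-5p was 6th, and for miR-99a-5p, for which Let-7a-5p was 41st. Each profile rests on 4 points that share the library totals. For a pair of names this difference is the SD of their log2 ratio times a constant. These ranks therefore reuse the spread of the ratios above and are not a separate result.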

How the data were processed

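miR-seq of U-251 cells was analysed in 4 libraries of 1 group. The authors deposited unnormalized counts per miRNA name, handled here as estimated counts, since the values of 40 names are not whole. Those of miR-125b-5p and Let-7a-5p became whole when multiplied by their 2 and 3 hairpin genes, within a tolerance of 0.01. The same held for 19 of the 37 such names with a known number of hairpin genes, these 2 included. Per the paper's methods, adaptors were trimmed with Trimmomatic, long reads were discarded and the rest were mapped to hg38 with Bowtie and counted with miRDeep2. The submitters' processing notes also name bcl2fastq 2.20 and Picard. The annotation release, the use of molecular identifiers and the origin of the fractional values are not given in the sources used here. The upper-quartile normalization of the study is not in the deposited counts.

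The deposited table names 538 miRNAs of the 5p arm and 18 of the 3p arm. Whether a 5p name also holds reads of the other arm was not tested. Counts were not corrected for differences in capture between sequences, so a ratio between names is one of counts and not of molecules.

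Total counts were between 12363104 and 13214969, and a count of 0 would allow up to 3 counts, 0.227 to 0.243 CPM. The 95% intervals are by Wilson's method and hold counting error alone. Python 3.11.15 with numpy 2.4.6, pandas 2.3.3 and scipy 1.17.1 gave the CPM, CVs, profile distances and two-sided exact sign-flip permutation tests, and matplotlib 3.10.9 the plots. Blanks were left out, and so added nothing to a sum of names, except where they were taken as 3 or 0 counts. CVs, profiles and Dixon's gap ratio (95% critical value for 4 libraries) used the 280 names with at least 10 counts in every library. Under R 4.3.3, DESeq2 1.42.0 and edgeR 4.0.16 gave alternative scaling factors from rounded counts. Hairpin genes came from GENCODE release 44 on GRCh38 and sequences from RefSeq on GRCh38.p14. Coordinates count from 1. The gap ratio, CV and profile search were tested on simulated counts, and the permutation test and its adjustment on small examples. The ratios and their alternatives were not tested in this way.

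The members, comparators and marker lists were chosen with earlier results of these data known. Named beyond them are the Let-7 family with miR-98, the 3 nearest profiles per member and names blank in replicate 1 at over 10000 counts elsewhere.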

Additional observations from a re-analysis of the deposited data

Results flagged for a closer look

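Of 17 values over the 4 libraries tested with Dixon's gap ratio, 1 had a library standing apart. Let-7c-5p, the Let-7 partner of miR-99a-5p, had a gap ratio of 0.863, above the 95% critical value for 4 libraries. It held 3.22% of the counts in replicate 4 and between 2.62% and 2.71% in the other libraries. Let-7f-5p, which was not among the 17, had a gap ratio of 0.838, also above the critical value, with replicate 1 apart. Chance gives such a result in about 1 of 20 groups, and 17 values were tested.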

How the results depend on the processing

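Of 76 alternatives tried on the ratios and their differences, 68 kept the direction, of which 13 moved the value by at least 1.5 times, and 8 reversed it. Much of the 68 was fixed in advance. Leaving out a library could not reverse any of the 12 comparisons with the same sign in every library. Dividing by hairpin genes also left ratios between names with equal numbers of them unchanged. With counts divided by the number of hairpin genes, the log2 ratios were −0.55 for miR-125b-5p to Let-7c-5p and −0.17 for miR-125b-5p to miR-125a-5p, and the ratio of miR-100-5p to Let-7a-5p minus that of miR-99a-5p to Let-7c-5p was 0.22. These shifts follow from the division itself, and whether the deposited counts were already averaged over hairpin genes was not tested. With names 1 base apart summed, miR-125b-5p to Let-7c-5p was −3.61, since Let-7a-5p and Let-7b-5p then join Let-7c-5p. The same summing, tried on differences of ratios after seeing the data, gave 0.58 for miR-100-5p to Let-7a-5p minus miR-99a-5p to Let-7c-5p and 0.53 for miR-125b-5p to Let-7a-5p minus miR-125a-5p to Let-7e-5p. In the value of 0.58, miR-99a-5p and miR-100-5p became the same sum and cancelled, leaving Let-7 names alone. In that of 0.53, Let-7a-5p entered both ratios. The 13 that moved without reversing came from dividing by hairpin genes, summing names or filling the blank. Among them were miR-125a-5p to Let-7e-5p at −3.57 and Let-7a-5p to Let-7c-5p at 1.45. Another was Let-7c-5p to Let-7e-5p at 0.87, with Let-7a-5p in both sums. With the blank taken as 3 counts, miR-100-5p to miR-99a-5p was −1.58. Without replicate 1, Let-7c-5p to Let-7e-5p was −0.0017, the lowest of a range of −0.0017 to 0.080 over libraries left out. Adding Let-7a-5p, Let-7c-5p and Let-7e-5p raised the summed share to 34.7%, by construction. The blank taken as 0 gave miR-100-5p a mean of 916 CPM, and upper-quartile factors gave miR-125a-5p a CV of 13.8%. A library stood apart for 32 names with no count minimum, 40 with upper-quartile factors and 38 with TMM factors, compared with 31. Summing names 1 base apart gave no value for miR-100-5p to miR-99a-5p or Let-7a-5p to Let-7c-5p, and no ratio with miR-99b-5p could be computed. No paired analysis was possible because all 4 libraries belong to 1 group. With 4 libraries no permutation test could reach 0.05.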

Other observations

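Among the 3 measured members and 9 Let-7 family names with a value in every library, 3 were highest in replicate 1, namely miR-99a-5p, Let-7f-5p and miR-98-5p, and 4 were lowest there, namely miR-125a-5p, Let-7i-5p, Let-7c-5p and Let-7e-5p. Let-7f-5p measured 51833 CPM in replicate 1 and 20210 to 25338 CPM in the other libraries, and miR-98-5p measured 2014 CPM in replicate 1 and 738 to 1180 CPM in the others. In replicate 4, 4 of the 12 names were highest, namely Let-7e-5p, Let-7c-5p, Let-7b-5p and miR-125a-5p, and 6 were lowest, miR-125b-5p and Let-7a-5p among them.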
